A study of Zea mays with 18 samples.

Results

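In maize zygotes collected 12 h after pollination, 255 of the 39475 gene IDs in the count table carried transcripts that were at or near 0 in both gametes. They were chosen by level alone. Each had at least 2 CPM (counts of the gene per 1000000 counts of its library) in all 3 libraries of 12 h zygotes, and under 0.1 CPM in all 3 libraries of sperm cells and all 3 of egg cells. Of the table, 16276 genes reached the 12 h minimum, 11935 stayed under the gamete limit, and 259 met both. The rule then leaves out 5 listed IDs, 4 of which had met both limits. Because the members were selected on the sperm, egg and 12 h libraries, their rise from the gametes to 12 h is the choice itself and is given as a description without a test. Tests were made only in the 24 h zygotes and in the apical and basal cells, whose libraries the rule did not use.

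The study measured polyadenylated RNA in cells dissected by hand from untreated wild-type plants of the inbred maize line B73, and its title places it in the question of when the zygote's own genome becomes active. It has 6 groups of 3 libraries: sperm cells (1000 cells a library), egg cells (20), zygotes at 12 h (14 or 15), zygotes at 24 h (16 or 17), and the apical (16) and basal (13 or 14) cells that the first, asymmetric division of the zygote produces. The labels write the times as hap, which was read as hours after pollination. All libraries came from amplified cDNA of few pooled cells, and the labels do not say whether libraries of a group came from separate plants, so the p-values measure the spread between these libraries.

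A zygote starts with RNA that the gametes carry in, the egg bringing most of the cytoplasm. As this inherited RNA is degraded, transcription from the new genome replaces it, a change called zygotic genome activation. A transcript that is missing from both gametes and present in the zygote is the simplest kind of candidate for new transcription, since neither parent cell held a stock of it. In flowering plants the first division then separates a small apical cell, from which most of the embryo grows, from a larger basal cell, which gives the suspensor, the stalk through which the embryo is fed.

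The libraries held 11128444 to 25771168 counts. The sperm marker hap2, the only 1 of 7 listed that was found, had 294 to 418 CPM in sperm libraries and at most 10.5 CPM elsewhere. The egg and embryo sac markers (6 of 7 found, as 5 gene IDs) summed to 529 to 5019 CPM in egg libraries. Their sums were 2444 to 2964 CPM at 12 h and 856 to 2218 CPM at 24 h. Apical libraries had sums of 62.7 to 93.2 CPM, and basal libraries of 147 to 234 CPM. The list sum was therefore lower in the daughter cells, as most members were. The means of es1, es2 (the same ID as es3) and es4 were lower there too. That of ebe1 was 13.5 CPM in 24 h zygotes and higher after the division, with 40.3 CPM (apical) and 29.4 CPM (basal). For ebe2 the 24 h mean was 23.7 CPM, followed by 14.0 CPM (apical) and 35.7 CPM (basal). The part of carried-over egg RNA in the members' levels was not tested, and the members were under 0.1 CPM in the eggs. The sum for pollen and pollen tube (8 of 12 found) was 547 to 657 CPM in sperm libraries, 170 CPM in apical replicate 1 and at most 3.63 CPM in the other 2 apical libraries. Green or maternal sporophyte tissue (7 of 13 found) summed to 440, 552 and 471 CPM in apical libraries. Its basal sums were 484, 467 and 516 CPM, and GRMZM2G102499 alone had means of 403 and 449 CPM. Endosperm and central cell (15 of 17 found) summed to 120 to 171 CPM at 12 h and 168 to 228 CPM at 24 h. Its sums were 276 to 314 CPM in apical and 221 to 280 CPM in basal libraries, with mez1 means of 241 and 211 CPM. The floral MADS-box genes zag1, zag2 and bde1, fixed as markers of nucellus or carpel wall (zmm1, the other gene of that list, was not found in the reference), summed to 1.13 to 5.12 CPM in the gametes. They summed to 185, 124 and 221 CPM at 12 h and to 157, 396 and 87.4 CPM at 24 h. The sums were 37.0, 1006 and 196 CPM in apical and 12.8, 197 and 107 CPM in basal libraries, so replicate 2 was the highest library of the 24 h, apical and basal groups. For members too, apical replicate 2 was the highest apical library for 147 of the 244 with a count there (60.2%, against 43.6% of other genes), and basal replicate 2 the highest basal library for 164 of 249 (65.9%, against 49.1%). The counts of calls against 24 h and the median ratios over members that use apical or basal replicate 2 are therefore given with and without that library.

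In the gametes the members were close to the limit of detection. At 0 counts in all 6 gamete libraries were 154 members (60.4%), another 59 had 1 count there in all, and 42 had 2 to 5 counts. All 255 together summed to 0.441 to 2.21 CPM in a gamete library, against 3698, 2981 and 5000 CPM in the 12 h libraries. A count of 0 over a group allows up to 0.0451 CPM in sperm and 0.0652 CPM in egg, at 3 counts, which covers counting error only. The lists just inside and outside the rule were hardly apart: d9, GRMZM2G166719 and GRMZM2G035933 were taken with 12 h minima of 2.03, 2.07 and 2.07 CPM, and GRMZM2G166738, GRMZM2G107686 and GRMZM2G122498 were not, at 1.99, 1.98 and 1.98 CPM. GRMZM2G448368, GRMZM2G003368 and GRMZM2G136895 were taken at a gamete maximum of 0.0892 CPM, and GRMZM2G119823, GRMZM2G031909 and GRMZM2G170128 were not, at 0.105 CPM. The number of members rested on single libraries: it was 462 without egg replicate 1, 393 without egg replicate 3 and 410 without 12 h replicate 2.

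**Figure D1:**
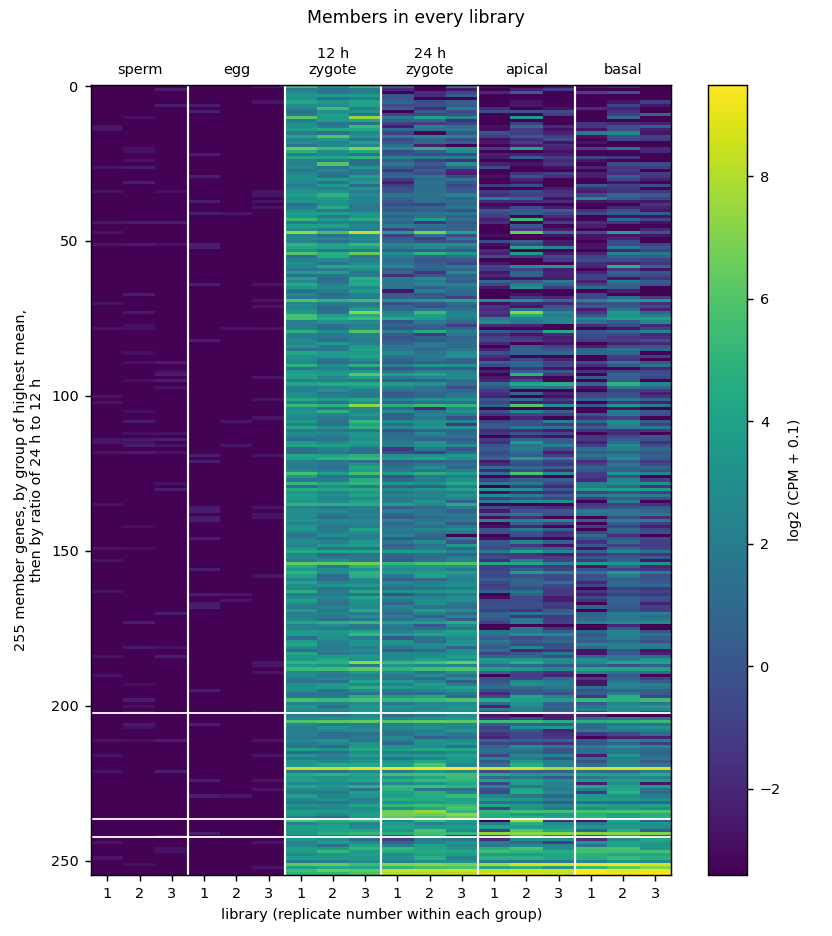
Level of each of the 255 members (rows) in each of the 18 libraries (columns, replicates 1 to 3 of each group), as log2 of CPM plus 0.1. Horizontal white lines separate the 203 members with their highest group mean at 12 h from the 34 highest at 24 h, the 6 highest in apical and the 12 highest in basal cells; the dark gamete columns and the filled 12 h columns are what the rule chose.

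Most members were of modest level at 12 h and a few were abundant. The median of the mean levels was 7.87 CPM, with a range of 2.47 to 386 CPM. At least 10 CPM was reached by 97 members and at least 100 CPM by 2. The reference names few of them: 161 of the 255 IDs matched 1 entry and 18 carried an informative name, so most of the abundant members are given by their ID. None of the 12 highest at 12 h had a name.

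GRMZM2G328205 was the most abundant member, with 350, 313 and 494 CPM at 12 h. It had 538, 613 and 724 CPM at 24 h, 398, 389 and 216 CPM in apical and 415, 452 and 455 CPM in basal libraries, after 0 counts in all gamete libraries. Every library from 12 h on was therefore above 200 CPM, and the 24 h libraries lay above the 12 h ones without overlap.
GRMZM2G167613 was the next highest, at 176, 50.2 and 336 CPM at 12 h, and had 12.3, 114 and 16.6 CPM at 24 h. Its apical levels were 0, 86.2 and 2.69 CPM and its basal levels 0.738, 17.5 and 0.934 CPM, so replicate 2 was the high library in all 3 later groups. GRMZM2G092813 (88.6 ± 45.8 CPM at 12 h, SD, n = 3), AC209636.2_FG003 (84.1 ± 80.2), GRMZM2G480516 (76.6 ± 74.4) and GRMZM2G125482 (59.4 ± 31.7) had the same replicate 2 highest in the 24 h, apical and basal groups. By contrast GRMZM2G366434 (88.4 ± 16.4 CPM at 12 h), GRMZM2G141638 (71.4 ± 11.9) and GRMZM2G093595 (54.9 ± 20.8) were more even.

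The 3 libraries of 12 h zygotes did not hold the members at equal levels. The ratio of the highest to the lowest 12 h library had a median of 2.39 over the members, against 1.57 over the 16021 other genes at the 12 h minimum, and exceeded 5 in 36 members (14.1%, against 3.0% of the others). The others were not matched to the members' level at 12 h, which had a median of 7.87 CPM. Replicate 3 was highest for 121 members and replicate 2 lowest for 144. GRMZM5G858653 was the widest, at 12.6, 2.41 and 149 CPM, a ratio of 61.5. GRMZM2G040689 was high in another library, at 4.65, 66.2 and 2.34 CPM, and AC209636.2_FG003 had 68.2, 13.0 and 171 CPM. The cause of this spread was not tested.

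From 12 h to 24 h most members were at lower levels, though the 12 h libraries had been held to a minimum by the rule and the 24 h libraries had not. The median level was 4.19 CPM at 24 h. The median log2 ratio of 24 h to 12 h (means with 0.1 CPM added) was -1.07, against -0.16 over the 18812 genes with a mean of at least 2 CPM at 12 h. At least 2-fold lower at 24 h with no overlap between the groups were 88 members (34.5%), where 7.03% of those genes were, and at least 2-fold higher with no overlap were 11 (4.31%), where 3.0% were. These shares were not tested, and the rule's 12 h minimum is built into both.

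Among the members that were lowest at 24 h relative to 12 h, GRMZM2G117491 had 40.1, 6.86 and 30.3 CPM at 12 h and 1.03, 0 and 2.15 CPM at 24 h, a 22.3-fold lower mean. AC194824.2_FG005 was 21.0-fold lower, with 3.84, 2.69 and 3.86 CPM at 12 h and at most 0.154 CPM at 24 h. GRMZM2G122280, GRMZM2G094860 and GRMZM2G172264 were 14.6-fold, 13.3-fold and 12.2-fold lower. GRMZM2G094860 and GRMZM2G172264 then had 0 counts in all 6 daughter cell libraries. These are transcripts with much lower means at 24 h than at 12 h, although 24 h replicate 3 of GRMZM2G117491 still held 2.15 CPM.

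The opposite course was rarer. GRMZM2G416677 had 5.09, 2.20 and 12.6 CPM at 12 h and 80.5, 54.7 and 101 CPM at 24 h, an 11.8-fold higher mean. GRMZM2G066103, whose reference entry is shared with another gene ID, had 11.4, 5.93 and 14.0 CPM at 12 h and 106, 97.1 and 160 CPM at 24 h. GRMZM2G404188 was 8.50-fold higher at 24 h, with 15.3, 11.3 and 9.70 CPM and then 110, 167 and 34.6 CPM. All 3 had their highest mean at 24 h and had lower means in the daughter cells. None overlapped its 12 h libraries in the basal group, and in the apical group GRMZM2G066103 did (24.6, 12.2 and 12.9 CPM). GRMZM2G442645 (6.79-fold) and GRMZM2G025133 (5.00-fold) were also higher at 24 h, and did not have their highest mean there.

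**Figure D2:**
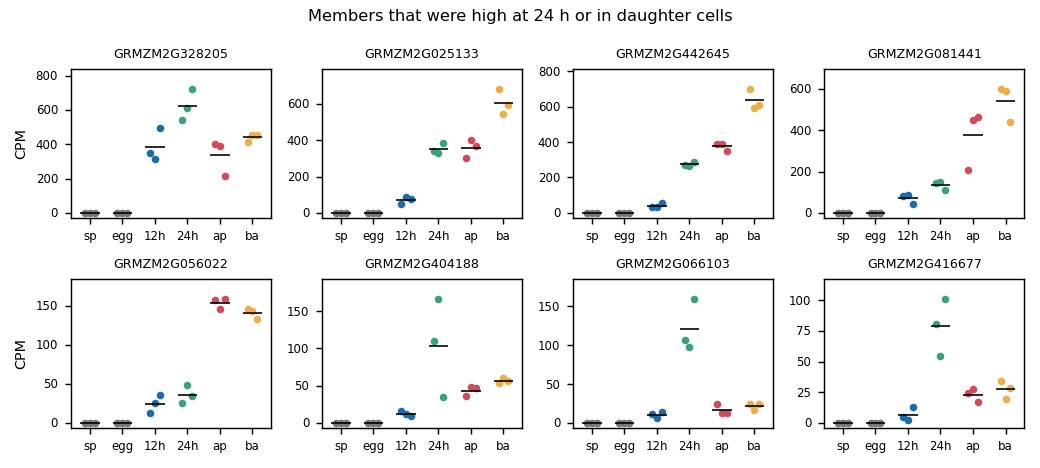
CPM (vertical axis, linear, own scale in each panel) of 8 members in sperm (sp), egg, 12 h zygotes, 24 h zygotes, apical (ap) and basal (ba) cells; points are libraries and bars are means of 3. The gamete points lie on 0, the members of the lower row apart from GRMZM2G056022 peak at 24 h, and GRMZM2G025133, GRMZM2G442645 and GRMZM2G081441 have their highest means in basal cells.

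After the division the set thinned out. At least 2 CPM in all 3 libraries was held by 132 members at 24 h (51.8%), by 38 in apical cells (14.9%) and by 55 in basal cells (21.6%). Of the 16021 other genes at the 12 h minimum, 93.6%, 83.2% and 84.4% held it. The median member had 0.890 CPM in apical cells and 1.11 CPM in basal cells, 11 members had 0 counts in all apical libraries and 6 in all basal libraries. Without apical replicate 1, which had the fewest members at the minimum, 64 members held it in apical cells.

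Following each member through the 3 later groups, 118 held the minimum in none of them, 75 at 24 h only, 21 at 24 h and in basal cells, 5 at 24 h and in apical cells, and 31 in all 9 later libraries. Another 3 held it in basal cells only and 2 in apical cells only. The 31 ran from 5.26 CPM at 12 h (GRMZM2G163189) to the 386 CPM of GRMZM2G328205, and ZMM2 was the only one of them with a name. At the other end, 7 members were under 0.1 CPM in all 6 daughter cell libraries, namely GRMZM2G349749, GRMZM2G094860, GRMZM2G465835, GRMZM2G165387, GRMZM2G172264, Cel26 and GRMZM2G140739.

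**Figure D3:**
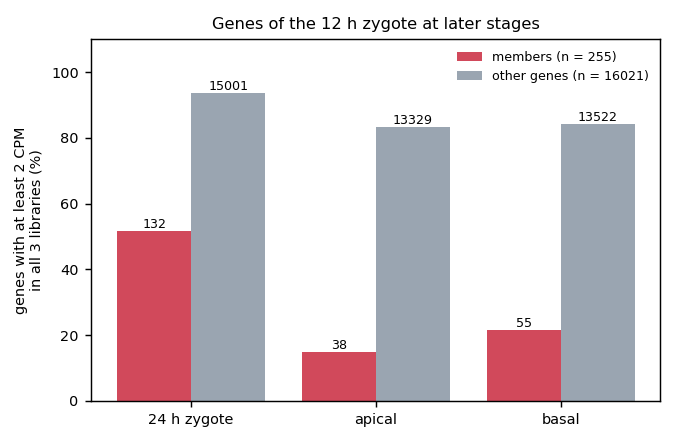
Share of genes that kept the 2 CPM minimum in every library of 24 h zygotes, apical cells and basal cells, for the 255 members and for the 16021 other genes that held this level in all 12 h libraries; numbers on the bars are gene counts. Of the members, 132, 38 and 55 held it, and the shares are not adjusted for the level at 12 h.

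The daughter cells were tested against the 24 h zygote with edgeR's quasi-likelihood test over all genes (Benjamini-Hochberg adjusted p under 0.05). Of the 255 members, 235 passed the filter on low counts and 20 did not, and 44 of those tested had means under 0.5 CPM in both daughter cells, so that their 24 h level took them past the filter and a call could hardly be other than lower. Apical cells had 86 members lower and 4 higher than 24 h zygotes, where 19.7% of the 21954 genes tested were lower and 21.6% higher. Basal cells had 57 members lower and 8 higher, where 15.8% and 18.9% of genes were. Without those 44, a setting added after seeing the data, 59 of 191 members were lower in apical cells (30.9%, against 18.8% of the 20742 genes left by the same cut), and 37 of 191 in basal cells (19.4%, against 15.2%). All 4 and 8 higher calls were among the 191. The groups did not overlap in 85 of the 86 lower and 4 of the 4 higher apical calls, where 99.7% and 77.8% of all called genes did not. In basal cells they did not overlap in 57 of the 57 lower and 6 of the 8 higher calls, where 99.6% and 88.3% of all called genes did not. Both comparisons use the same 24 h libraries.

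In plain CPM the median log2 ratio to 24 h was -1.90 in apical and -1.73 in basal cells over all 255 members, against -0.54 and -0.55 over the 18812 genes. The fitted log2 fold changes below are scaled by TMM factors, which puts them 0.40 (apical) and 0.34 (basal) above the plain CPM ratio. Without apical replicate 2 the plain median was -2.31 (-0.67 over the 18812 genes). The apical counts were again 86 lower and 4 higher, where 16.9% and 19.6% of all genes were. Without basal replicate 2 the plain median was -2.23 (-0.66). The basal counts were 61 lower and 6 higher, where 13.6% and 16.1% of all genes were. Without 24 h replicate 2 the apical lower count was 66 (27.2% of members tested, against 14.9% of all genes). Leaving out 24 h replicate 3 took the apical lower count to 56 (23.5% of members tested) and the share of all genes called lower to 13.7%. The basal lower count was 32 without 24 h replicate 2 (13.2%, against 10.5% of all genes), 31 without 24 h replicate 3 (13.0%, against 10.3%), 29 without basal replicate 1 (11.6%, against 9.996%) and 32 without basal replicate 3 (12.9%, against 9.77%). In basal cells the members' share of lower calls was thus near that of all genes under these last settings. The basal higher count was 5 without 24 h replicate 1, where 16.0% of all genes were higher. In these pooled cells a fall in CPM may mean fewer cells with the transcript or less of it in each cell, which cannot be told apart.

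Several members were close to or at 0 after the division. Of those in the next sentences all but GRMZM2G115491 and GRMZM2G064106 are among the 44 that passed the filter through 24 h, so they are described by counts and no p is given. GRMZM2G018108 had 12.5, 5.83 and 23.7 CPM at 24 h and 0 counts in all apical libraries, at least 313-fold lower when 3 counts are taken as the group's floor. It was 0.295, 0.380 and 0.220 CPM in basal libraries, so both daughter groups lay below every 24 h library. GRMZM2G030850 had 3.50, 0.981 and 6.28 CPM at 24 h and 0 counts in apical libraries, at least 79.8-fold lower, and 3 counts in basal libraries, a ratio of 66.9 with a 95% exact counting interval of 22.6 to 327. GRMZM2G083855 was at 0 counts in apical libraries too, at least 29.0-fold below 0.874, 1.03 and 1.98 CPM. GRMZM2G140739 had 2.16, 3.77 and 6.72 CPM at 24 h, at most 0.0898 CPM in an apical library, and 2 counts in all basal libraries (ratio 118, interval 32.4 to 983).

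Further members were lower in basal cells, most of them from lower levels. GRMZM2G111998 had 0.771, 0.619 and 0.716 CPM at 24 h and 0 counts in basal libraries, while its apical libraries held 0.116, 0.101 and 0.0898 CPM. GRMZM2G013448 had 1.03, 1.75 and 1.38 CPM at 24 h and 1 count in basal libraries, a ratio of 78.9 with an interval of 13.8 to 3156. GRMZM2G357034 (2 basal counts, ratio 78.9, interval 21.5 to 657) and GRMZM2G115491 (3 basal counts, ratio 61.3, interval 20.6 to 300) were like it. In apical cells GRMZM2G106324 had 1 count (ratio 206, interval 36.5 to 8184) against 0.617, 1.24 and 7.54 CPM at 24 h. GRMZM2G064106 fell in apical cells, with a fitted log2 change of -5.87 ± 0.89 (SE), from 3.55, 4.85 and 6.39 CPM to 0.0776, 0.101 and 0 CPM.

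Abundant members fell by smaller factors and stayed present. GRMZM2G141638 had 68.6, 81.9 and 75.9 CPM at 24 h, 39.3, 39.3 and 22.9 CPM in apical and 25.8, 30.7 and 38.0 CPM in basal libraries, without overlap (log2 changes of -0.77 ± 0.24 and -0.92 ± 0.24, edgeR adjusted p = 0.0258 and 0.0137). Its apical call was lost without 24 h replicate 2, 24 h replicate 3 or apical replicate 3. GRMZM2G366434 went from 35.3, 49.9 and 63.9 CPM to 18.5, 20.4 and 5.34 CPM in apical and 13.5, 9.72 and 8.57 CPM in basal libraries, and its apical call was lost without 24 h replicate 2 or 3. GRMZM2G305362, also among the 12 highest at 12 h, was called lower in both cells (log2 changes of -1.77 and -1.68). Both calls were lost without 24 h replicate 3 and with eggs and 12 h zygotes added to the fit. They were also lost without replicate 1 or 3 of the daughter cell. GRMZM2G066103, one of the members highest at 24 h, fell to 24.6, 12.2 and 12.9 CPM in apical cells (log2 change -2.46 ± 0.36, edgeR adjusted p = 0.000573) and to 24.9, 16.0 and 24.8 CPM in basal cells (-2.12 ± 0.36, adjusted p = 0.0015). GRMZM2G416677 fell as well, by 1.39 ± 0.32 in apical and 1.17 ± 0.31 in basal cells, the latter not called without 24 h replicate 3. GRMZM2G066103 and GRMZM2G416677 had their highest group mean at 24 h.

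A small group of members was higher in the daughter cells than at 24 h. GRMZM2G056022 had 25.2, 48.6 and 34.3 CPM at 24 h, 157, 146 and 159 CPM in apical and 145, 143 and 132 CPM in basal libraries. Its rise of 2.50 ± 0.23 on the log2 scale in apical cells (edgeR, adjusted p = 8.11e-05) and of 2.31 ± 0.23 in basal cells (adjusted p = 0.000149) left a wide gap to every 24 h library. GRMZM2G081441 had 145, 149 and 112 CPM at 24 h, 210, 451 and 462 CPM in apical and 601, 589 and 438 CPM in basal libraries, a rise of 1.87 ± 0.28 and of 2.34 ± 0.29. GRMZM2G442645, already higher at 24 h (268, 266 and 288 CPM) than at 12 h (32.0, 34.1 and 54.7 CPM), reached 387, 389 and 349 CPM in apical and 702, 594 and 610 CPM in basal libraries, a rise of 0.85 ± 0.15 and of 1.56 ± 0.16. GRMZM2G134604, at 23.2, 22.6 and 19.5 CPM at 24 h, rose in both cells (log2 changes of 1.05 ± 0.25 and 1.43 ± 0.25). Its apical call was lost with scaling by library size only and with eggs and 12 h zygotes added to the fit. These 4 are all the members called higher in apical cells, and they were called in basal cells as well.

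Another 4 were called higher in basal cells. GRMZM2G025133 had 339, 331 and 387 CPM at 24 h, 303, 398 and 366 CPM in apical and 684, 542 and 592 CPM in basal libraries, a basal rise of 1.13 ± 0.18 (edgeR, adjusted p = 0.00105). The apical libraries overlapped the 24 h ones, with a log2 change of 0.41 ± 0.18 that was not called (adjusted p = 0.0827). GRMZM2G028713 (1.52 ± 0.50, 25.7, 40.6 and 27.3 CPM in basal libraries), GRMZM2G121258 (1.42 ± 0.38, 30.5, 18.3 and 20.7 CPM) and GRMZM2G081105 (1.22 ± 0.43, 41.9, 79.1 and 146 CPM) were the others. The call for GRMZM2G028713 was lost without 24 h replicate 1 or 3 or any one basal library, and that for GRMZM2G121258 without 24 h replicate 1 or basal replicate 1. Both were lost with eggs and 12 h zygotes added to the fit. GRMZM2G028713 also lost its call with scaling by library size only and with only the 2 groups fitted. That for GRMZM2G081105 (edgeR, adjusted p = 0.0498) was lost without any one 24 h library or basal replicate 2 or 3.

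A few members made up a large share of the members' summed CPM. The 5 members with at least 100 CPM in a daughter cell group (GRMZM2G328205, GRMZM2G025133, GRMZM2G442645, GRMZM2G081441 and GRMZM2G056022, taken after their values were seen, of which GRMZM2G328205 was called in neither daughter cell and GRMZM2G025133 not in apical cells) made up 14.2%, 18.3% and 14.1% of the members' summed CPM in the 12 h libraries. They made up 42.5%, 35.6% and 40.8% at 24 h, 69.7%, 49.8% and 71.3% in apical and 77.2%, 63.7% and 70.0% in basal libraries. The remaining 250 members summed to 3175, 2437 and 4297 CPM at 12 h, to 1781, 2550 and 2242 CPM at 24 h, to 631, 1791 and 624 CPM in apical and to 751, 1321 and 954 CPM in basal libraries. Apical replicate 2 was the library with the most of this remainder in the daughter cells, and it also had the largest sum of zag1, zag2 and bde1, whose part in this was not tested.

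Transcription factors, the proteins that switch other genes on or off, were 9 of the 18 named members. The same share over all named genes was not counted, so this number does not show that the members are rich in factors. OBF1, a bZIP factor by its name, was the most abundant, with 16.5, 28.8 and 36.0 CPM at 12 h. It had 12.1, 18.3 and 7.87 CPM at 24 h, 1.63, 13.7 and 3.59 CPM in apical and 1.23, 6.90 and 0.989 CPM in basal libraries, and neither daughter cell was called against 24 h. Myb56, a MYB family factor, had 19.2, 18.8 and 29.3 CPM at 12 h and 4.73, 4.13 and 3.52 CPM at 24 h, a 5.33-fold lower mean without overlap. It then fell to 0.443, 0.272 and 0 CPM in basal cells (fitted log2 change -3.73 ± 1.12). Its apical libraries held 0.0776, 1.11 and 0.314 CPM. Apart from the 1.11 CPM of apical replicate 2, its daughter libraries held at most 0.443 CPM, so its 24 h level took it past the filter. A call could therefore hardly be other than lower, and no p is given. It was called in basal cells and not in apical cells. The basal call was lost without 24 h replicate 1 or 2 or basal replicate 2 or 3.

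wox9B belongs to the WUSCHEL-related homeobox family, whose members WOX8 and WOX9 act in the basal lineage of the early embryo in Arabidopsis. It had 23.4, 17.6 and 21.8 CPM at 12 h and 6.53, 9.70 and 14.2 CPM at 24 h. Its levels were 11.4, 8.22 and 0.898 CPM in apical and 12.3, 15.0 and 13.5 CPM in basal libraries, so every basal library lay above every apical one, with apical replicate 3 far the lowest. The fitted log2 difference of apical to basal was -0.94 ± 0.67 and was not called (edgeR, adjusted p = 0.648). lec1, of the LEAFY COTYLEDON1 type, a CCAAT-binding factor subunit that drives embryo development in Arabidopsis, had 16.2, 7.79 and 16.2 CPM at 12 h and 4.83, 5.11 and 9.47 CPM at 24 h. It stayed at 7.61, 4.34 and 1.17 CPM in apical and 3.64, 4.56 and 3.68 CPM in basal libraries, overlapping the 24 h libraries in apical cells and lying below them in basal cells, with no call in either.

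ZMM2, a MADS-box factor of the AGAMOUS kind, known for its part in stamens and carpels, had 11.8, 21.2 and 22.1 CPM at 12 h. It had 16.7, 57.8 and 7.16 CPM at 24 h, 2.21, 27.1 and 4.76 CPM in apical and 2.66, 6.25 and 3.19 CPM in basal libraries. ocl5, an HD-ZIP IV homeobox factor of a family known from the outer cell layer, had 11.4, 6.53 and 15.0 CPM at 12 h, 3.03, 9.70 and 2.04 CPM at 24 h, 0.194, 11.6 and 1.17 CPM in apical and 0.0985, 2.06 and 0.220 CPM in basal libraries. For both, replicate 2 was the highest library in the 24 h, apical and basal groups, as for the sum of zag1, zag2 and bde1, and neither was called in a daughter cell. The part of other tissue in these values was not tested.

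The other named factors were lower. EREB36, an AP2/EREB family factor, had 11.1, 2.31 and 3.41 CPM at 12 h and 0.771, 3.46 and 3.69 CPM at 24 h. In apical libraries it had 2 counts, a ratio of 88.7 with an interval of 24.1 to 739, and like the members above it passed the filter through 24 h. bHLH71 had 2.95, 5.49 and 2.79 CPM at 12 h, at most 1.45 CPM at 24 h and 0 counts in apical libraries, and did not pass the filter. baf1, an AT-hook protein known in maize for a role in forming the ear, had 6.27, 2.25 and 3.77 CPM at 12 h and 1.03, 1.08 and 2.04 CPM at 24 h. As the wider family, 314 genes of the reference had symbols of transcription factor families, and 190 of them were tested. In apical cells 26 rose (13.7%) and 50 fell (26.3%), where 21.6% and 19.7% of all genes did. In basal cells 17 rose (8.95%) and 42 fell (22.1%), where 18.9% and 15.8% did. Of the 9 named factors 4 (Myb56, ZMM2, EREB36 and bHLH71) are among the 314, and the symbols of the other 5 lie outside that search.

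**Figure D4:**
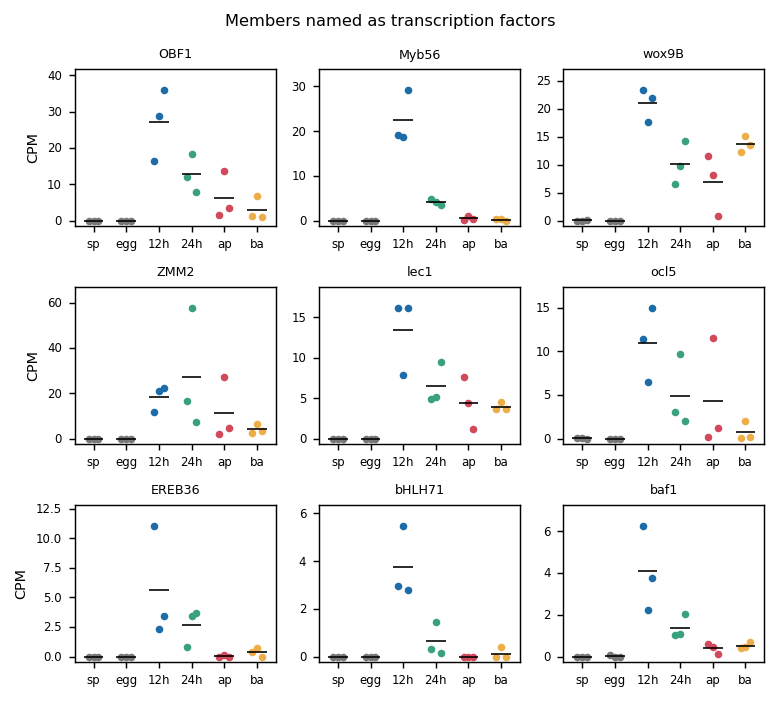
CPM (vertical axis, linear, own scale in each panel) of the 9 members named as transcription factors in sperm (sp), egg, 12 h zygotes, 24 h zygotes, apical (ap) and basal (ba) cells; points are libraries and bars are means of 3. Most were highest at 12 h, ZMM2 had its highest library at 24 h (57.8 CPM), and ZMM2 and ocl5 were high in 1 of 3 apical libraries (27.1 and 11.6 CPM).

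Hormone response was represented by a pair of named members. d9 (dwarf9), a DELLA protein that restrains growth until gibberellin removes it, had 5.46, 2.03 and 2.61 CPM at 12 h and 1.75, 2.06 and 1.65 CPM at 24 h. The apical libraries held 0.388, 0.303 and 0.0898 CPM and the basal libraries 0.246, 0.489 and 0.275 CPM, all below the 24 h libraries. It too passed the filter through 24 h, and no p is given. TIFY2, of the family that includes repressors of jasmonate response, had 10.4, 4.50 and 15.2 CPM at 12 h, 10.9, 12.9 and 16.4 CPM at 24 h, 0.504, 6.10 and 5.12 CPM in apical and 0.0985, 11.3 and 2.03 CPM in basal libraries. Neither daughter cell was called, and in both replicate 1 was the lowest library.

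Named enzymes of the cell wall included the cellulases Cel12Chr1 and Cel26, which cut glucan chains. Both had lower means at 24 h than at 12 h, and the libraries of Cel26 overlapped between these groups. Cel12Chr1 had 5.02, 10.9 and 2.88 CPM at 12 h and 0.617, 1.65 and 0.661 CPM at 24 h. Cel26 had 5.24, 2.31 and 6.65 CPM at 12 h, 0.411, 2.43 and 0.606 CPM at 24 h and 0.0279 and 0.0528 CPM as means in apical and basal cells. comt, a caffeic acid O-methyltransferase of lignin synthesis, had 3.86, 9.60 and 6.39 CPM at 24 h and fell to 1.55, 1.46 and 1.44 CPM in apical cells (log2 change -1.74 ± 0.59, edgeR adjusted p = 0.0358). That call was lost on leaving out any apical library or 24 h replicate 2 or 3. It was also lost with replicate numbers as a block, with no filter on low counts and with eggs and 12 h zygotes added to the fit.

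pglcat7 had 14.0 ± 3.96 CPM at 12 h, 6.33 ± 2.11 CPM at 24 h and 2.63 CPM as the mean in both daughter cells. gpb1 went from 4.99 ± 3.12 CPM at 12 h to 1.28 ± 0.205 CPM at 24 h, and SI397 from 4.30 ± 1.87 to 1.30 ± 0.543 CPM, each without overlap, and neither was called in a daughter cell. gst41, a glutathione transferase, had 5.16, 13.7 and 6.02 CPM at 12 h and 1.49, 4.65 and 10.5 CPM at 24 h. Its daughter cells then lay apart, with 4.0, 2.17 and 0.404 CPM in apical and 10.4, 18.2 and 12.1 CPM in basal libraries, which do not overlap. The fitted log2 difference was -2.56 ± 0.81 (edgeR, adjusted p = 0.374), so it was not called.

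Between apical and basal cells edgeR called 0 members, and 1 of the 21954 genes (0.00455%). At an unadjusted p under 0.05 were 34 of the 235 members tested (14.5%), where 10.4% of all genes tested were. Without basal replicate 2 it was 54 of 248 members tested, and without apical replicate 2 it was 37 of 248. The share of all genes was not computed for these 2 fits, so their counts show nothing particular to the members. DESeq2 called 7 members lower in apical cells and 0 higher, where it called 0.571% of 21908 genes lower. These 7, named after their values were seen, were GRMZM2G081105, GRMZM2G442645, GRMZM2G181358, GRMZM2G064106, GRMZM2G018108, GRMZM2G408537 and GRMZM2G063672. GRMZM2G181358 had the smallest DESeq2 adjusted p of them (2.42e-05), with 4.58, 3.28 and 4.67 CPM in apical and 17.3, 16.1 and 13.1 CPM in basal libraries (edgeR log2 difference -1.81 ± 0.30, adjusted p = 0.106). GRMZM2G063672 had 0.698, 1.16 and 0.135 CPM in apical and 3.79, 3.48 and 3.90 CPM in basal libraries, and GRMZM2G408537 had 0.233, 0.706 and 0.0898 CPM and 2.02, 3.04 and 2.42 CPM. In GRMZM2G442645 the basal libraries (594 to 702 CPM) all lay above the apical ones (349 to 389 CPM). Over all members the median log2 ratio of apical to basal in plain CPM was -0.33, against -0.02 over the 18812 genes. It was -0.70 without apical replicate 2 and 0 without basal replicate 2, against -0.11 and 0.04 over those genes, so its size rests on these libraries.

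One apical library carried a set of members at levels unlike the other apical libraries. In 19 members (7.45%, against 1.01% of other genes) apical replicate 2 was at least 5-fold above both other apical libraries. GRMZM2G063917 had 0, 192 and 0.225 CPM in apical libraries, and 59.6, 30.3 and 43.0 CPM at 12 h. GRMZM5G858653 had 0.272, 153 and 6.47 CPM in apical libraries, and GRMZM2G081582 had 2.33, 57.3 and 6.87 CPM. In the basal group replicate 2 was the highest for all 3, at 17.2, 12.5 and 9.51 CPM. ZMM2, ocl5, GRMZM2G167613, GRMZM2G092813, AC209636.2_FG003, GRMZM2G480516 and GRMZM2G125482 were also among the 19. The marker gene bde1 had 6.36, 512 and 23.5 CPM in the same apical libraries, zag1 had 2.41, 134 and 24.4 CPM and zag2 had 28.2, 360 and 148 CPM. Whether tissue that expresses these markers has a part in the members' levels was not tested. None of the members named here as high in this library was called against 24 h, and the apical counts without it are given above.

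**Figure D5:**
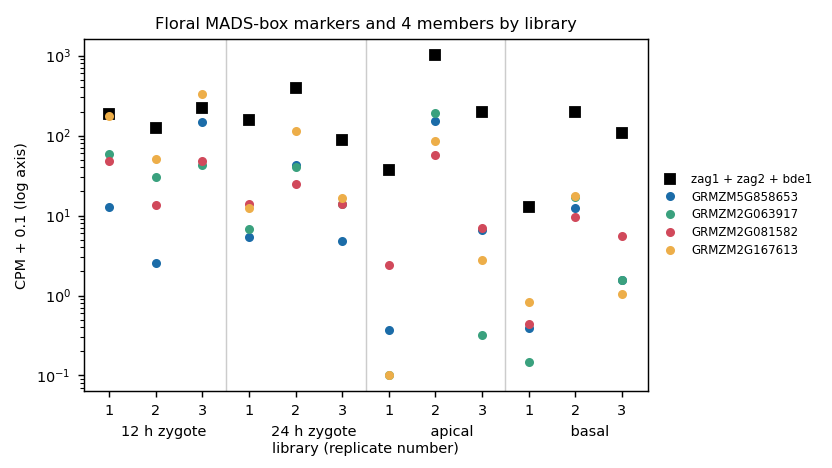
CPM plus 0.1 (log axis) in each library of 12 h zygotes, 24 h zygotes, apical and basal cells, for the sum of zag1, zag2 and bde1 (black squares) and for 4 members (coloured circles). The 4 members were taken after their values were seen. In apical replicate 2 the marker sum was 1006 CPM and the 4 members were between 57.3 and 192 CPM, while in the other 2 apical libraries the members were at most 6.87 CPM.

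GRMZM2G063917 and GRMZM2G081582 are also neighbours on the chromosome. Of the 159 members that could be placed in the order of the reference genes (assembly Zm-B73-REFERENCE-NAM-5.0), they were the only adjacent pair, and 6 pairs in all lay within 5 gene steps. The other 5 pairs included TIFY2, pglcat7 and wox9B, each with a member without a name. Most of the 159 therefore had no other member within 5 steps.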

How the data were processed

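The deposited table holds whole-number counts of reads per gene ID, not normalized, made by the authors. The submitters' processing notes name FastQC, cutadapt 1.13, Trimmomatic 0.32, STAR 2.5.2a, featureCounts, DESeq2 and the build B73 RefGen_v3. The strand setting and how multi-mapping reads were counted: not given in the sources used here. Members with near-identical copies or overlapping genes are therefore uncertain. The libraries were made from amplified cDNA without molecular identifiers, per the labels' protocols, so intervals and floors (3 counts) cover counting error only.

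The members and the lists were chosen with earlier results of these data known. CPM was computed on library totals. No pair of replicates agreed within sampling noise (chi-square per degree of freedom of 22.7 or more). Tests used edgeR 4.0.16 in R 4.3.3 on the 9 libraries of 24 h zygotes, apical and basal cells. The settings were quasi-likelihood with robust fit, TMM scaling, filterByExpr by group, Benjamini-Hochberg over all genes and adjusted p under 0.05. The fit was also run on simulated counts in which only genes well above the low counts of many members were changed. Its outcome is not given here and does not bear on members with few counts. The SE of a log2 fold change is its size over the square root of F. DESeq2 1.42.0, other scalings, filters and fits, the replicate block and left-out libraries were alternatives. Genes were named by rule: the 12 highest at 12 h, every member with a name, up to 6 called members with the largest change in each direction of each test, the 5 largest ratios of 24 h to 12 h without overlap in each direction, 3 at each side of each limit and the 3 widest at 12 h. Members outside this rule, among them GRMZM2G063917, GRMZM2G081582 and GRMZM2G081105, were named after their values were seen. Names come from a RefSeq gene table of another assembly, which pairs no descriptions, so role classes were read from symbols and synonyms alone. No sequence, coordinate or promoter motif was analysed here.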

Additional observations from a re-analysis of the deposited data

How the results depend on the processing

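The number of members, 255 as reported, was 146 with TMM scaling, 449 with a minimum of 1 CPM at 12 h, 101 with a minimum of 5 CPM, 154 with 0 counts asked of the gametes and 573 with under 0.5 CPM there, and it ran from 267 to 462 with 1 library left out. The members at the minimum in all apical libraries were 60 with 1 CPM as the minimum, and 39 to 64 with 1 apical library left out. With 1 library left out, the members called lower in apical cells numbered 56 to 86 and in basal cells 29 to 61. Those called higher in basal cells numbered 5 to 7. In the same order, 13.5% to 17.1%, 9.77% to 13.6% and 13.9% to 16.1% of all genes were called. DESeq2 called 7 members higher in apical cells than at 24 h, where 24.5% of all genes were. It called 7 lower in apical than in basal cells, where 0.571% of all genes were. Without members under 0.5 CPM in both daughter cells, a setting added after seeing the data, 37 were lower in basal cells and 59 in apical cells. Of all genes left by the same cut, 15.2% and 18.8% were. A fit of 15 libraries, with eggs and 12 h zygotes added, called 5 members higher in basal cells, where 9.81% of all genes were. The median log2 ratio of 24 h to 12 h stayed between -0.88 and -1.23. Whether replicate numbers pair the samples was not settled. Between apical and basal cells the deviations of same-numbered libraries correlated at 0.30, 0.33 and 0.0017, and those of unlike-numbered libraries at -0.36 to 0.086. With the 24 h zygotes, same-numbered libraries correlated at -0.18 to 0.14 and unlike-numbered ones at -0.18 to 0.19. With the numbers as a block, 84 members were lower and 5 higher in apical cells, where 19.0% and 21.0% of all genes were. In basal cells 66 were lower and 7 higher, where 15.5% and 18.6% of all genes were. Between the daughters 0 members and 0 of all genes were called. The 44 calls of named members were refitted 572 times, of which 490 kept the call, 82 lost it in the same direction (59 of them with a library left out) and 0 turned direction. Among them are calls of members that passed the filter through 24 h, which could hardly be other than lower. These counts therefore do not measure how firm the calls are. The cause was not tested for any of these changes. Low counts limit the rest: 20 members could not be tested.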
